A study of Mus musculus with 21 samples.

Results

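The selectins and endothelial adhesion molecules were followed as 9 genes taken by symbol from the count files, which hold 24391 gene symbols each. They are Sele, Selp, Selplg, Icam1, Icam2, Vcam1, Pecam1, Cdh5 and Tek, and all 9 were present. Sele, Selp, Icam1 and Vcam1, which inflamed vessels are known to induce, are called activation genes here. Pecam1, Cdh5 and Tek, which most endothelial cells make steadily, are called vessel genes, so that a change in activation could be set beside a change in vessel content.

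Newborn (P0) C57BL/6 mice gave RNA of 3 organs, brain, liver and skin, with 1 library per mouse and organ and 21 libraries in all. The 2 KI mice were heterozygous (Jak1 KI +/-) for an edited Jak1 allele that carries the missense change H595D and the silent changes I596I and Y597Y. The 5 WT mice carried no edited allele, and no group received a treatment. In the study, heterozygous KI animals were obtained from a mosaic KI male crossed to WT females, and the litter and sex of each mouse are not stated.

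Leukocytes leave the blood in steps. E-selectin (Sele) and P-selectin (Selp) on activated endothelium catch glycans on rolling leukocytes, chiefly those carried by PSGL-1 (Selplg), and the immunoglobulin-family receptors ICAM-1, ICAM-2 and VCAM-1 then hold leukocyte integrins firmly. PECAM-1 and VE-cadherin (Cdh5) sit at the junctions that the cells cross, and Tie2 (Tek) is the receptor for angiopoietins. Sele is made anew on activation, whereas P-selectin is also stored in endothelial granules and in platelets, and the newborn liver still forms blood cells.

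Depth lay between 26549326 and 38388133 counts on genes per library, with a median of 32240708. Levels are given as CPM, counts per 1000000 counts of the library after TMM scaling over the 21 libraries. Defining genes of each organ were high in its own libraries. 6 brain genes summed to at least 6603 CPM in the brain, 6 liver genes to at least 168207 CPM in the liver and 8 skin genes to at least 18873 CPM in the skin. The same liver genes ranged from 26.5 to 2032 CPM in the brain libraries. Jak1 ranged from 272 to 290 CPM in the KI liver and from 207 to 246 CPM in the WT liver, a log2 fold change of 0.30 that did not pass the test (edgeR adjusted p = 0.125); these counts do not separate the edited allele from the normal one. RNA integrity of the skin samples was lower than that of the liver samples in the study's methods.

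In the NCBIM37 (mm9) genome with its GENCODE vM1 annotation, Sele spans positions 165978365 to 165987808 and Selp positions 166045395 to 166080157 of chromosome 1, both on the plus strand. Icam1 lies on chromosome 9 from 20820404 to 20833241 and Vcam1 on chromosome 3 from 115812938 to 115832606. Pecam1 (106515531 to 106611942) and Icam2 (106238970 to 106249389) are both on the minus strand of chromosome 11. Selplg lies on chromosome 5 from 114267807 to 114280510, Cdh5 on chromosome 8 from 106625525 to 106668402 and Tek on chromosome 4 from 94405980 to 94541667. Annotated genes on the opposite strand overlap Selp (Gm16587 and Gm16548), Icam1 (Mir1900) and Pecam1 (U3). Whether the counting used strand is not given in the sources used here, so reads of these partners cannot be told apart.

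Promoter sequence was held for 4 of the 9 genes in the RefSeq table of build GRCm38.p6, and the 250 bases before each start are shown because they set the strongly changed selectins beside Icam1 and the vessel gene Tek. Capitals mark matches to TTCNNNGAA, the palindrome that STAT factors are known to prefer, and to GGNNNTTCC or its reverse complement GGAANNNCC, a loose form of the NF-κB site, where N is any base. The windows are chr1:164047984-164048233 for Sele, chr1:164115014-164115263 for Selp, chr9:21015690-21015939 for Icam1 and chr4:94739039-94739288 for Tek, all on the plus strand.
Sele: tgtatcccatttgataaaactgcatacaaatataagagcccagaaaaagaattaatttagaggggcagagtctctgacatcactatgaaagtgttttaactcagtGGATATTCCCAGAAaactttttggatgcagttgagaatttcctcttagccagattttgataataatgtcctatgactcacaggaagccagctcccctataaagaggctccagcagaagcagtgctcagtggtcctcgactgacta
Selp: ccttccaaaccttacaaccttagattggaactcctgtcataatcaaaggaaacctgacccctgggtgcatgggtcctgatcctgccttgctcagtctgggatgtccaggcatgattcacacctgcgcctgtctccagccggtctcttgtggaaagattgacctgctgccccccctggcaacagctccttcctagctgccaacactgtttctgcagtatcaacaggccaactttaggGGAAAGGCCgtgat
Icam1: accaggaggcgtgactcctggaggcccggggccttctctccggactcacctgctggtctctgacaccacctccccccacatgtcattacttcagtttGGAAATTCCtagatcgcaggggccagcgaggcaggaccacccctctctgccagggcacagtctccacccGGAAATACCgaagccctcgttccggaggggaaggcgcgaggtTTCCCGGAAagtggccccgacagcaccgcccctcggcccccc
Tek: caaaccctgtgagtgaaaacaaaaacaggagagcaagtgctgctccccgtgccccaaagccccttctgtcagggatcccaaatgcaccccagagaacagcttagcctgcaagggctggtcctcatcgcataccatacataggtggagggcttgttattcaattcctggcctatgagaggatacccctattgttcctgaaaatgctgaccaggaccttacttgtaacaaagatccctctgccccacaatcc
The Sele window held a GGNNNTTCC match at position -145, counted back from the gene start, and a TTCNNNGAA match at position -140 that overlaps it. Icam1 held TTCNNNGAA at position -42 and the other motif at positions -153 and -84. Selp held only the reverse form, at position -14, and Tek held neither. Among 32851 promoter windows of the same length, 7.02% held TTCNNNGAA, 15.7% held the GGNNNTTCC form and 1.25% held both. These matches describe the letters in the windows and were not tested for factor binding.

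**Figure D1:**
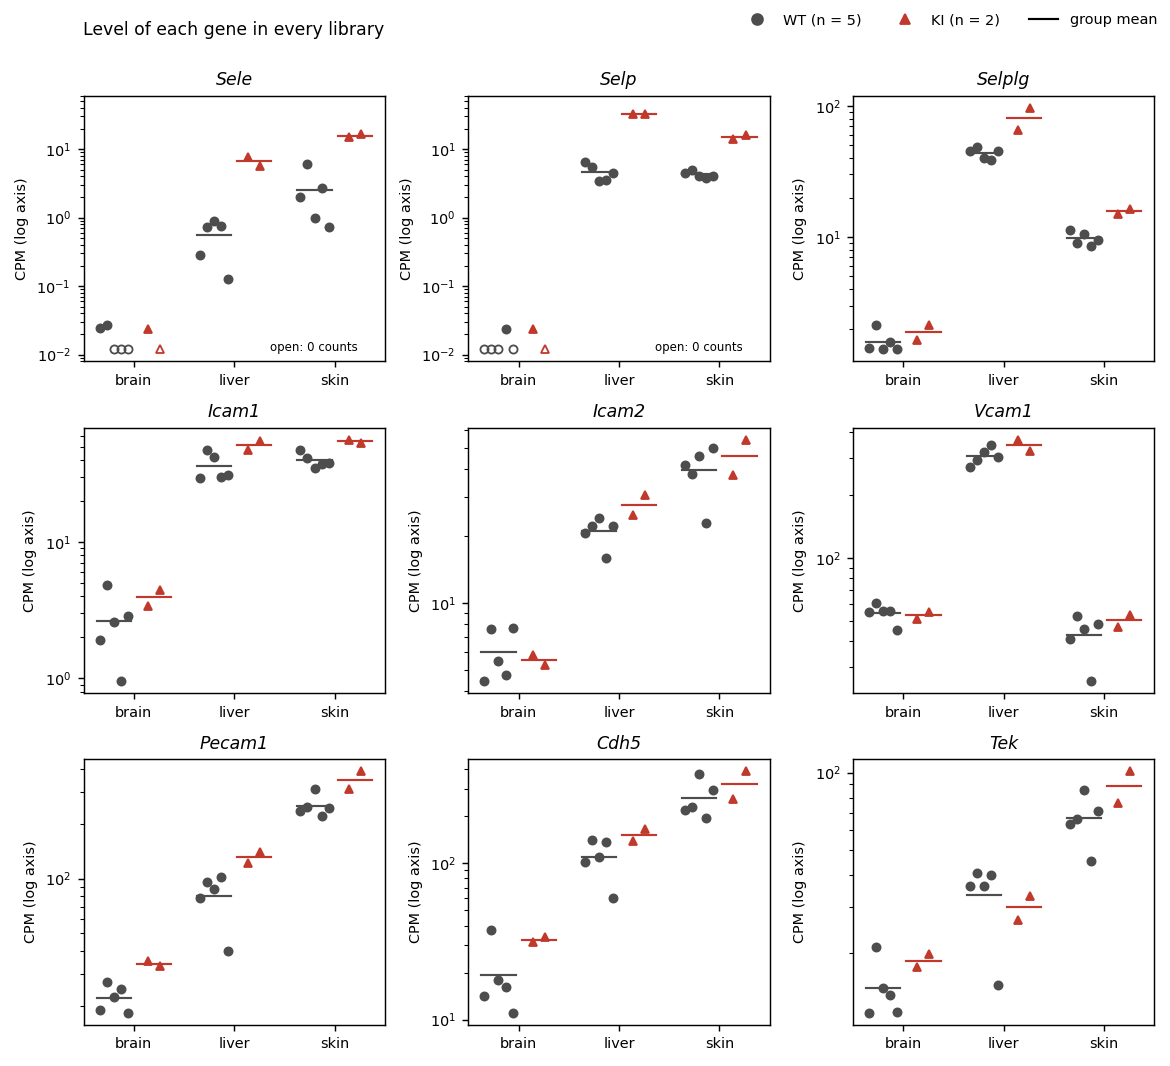
CPM of each gene (log vertical axis) in brain, liver and skin for the 5 WT libraries (circles) and 2 KI libraries (triangles), with bars at the group means and open symbols for 0 counts. Sele and Selp sit at 0 or 1 count in the brain, and both KI libraries lie above every WT library for Sele and Selp in liver and skin.

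The levels in WT animals set the scale for each organ. Divided by the length of the longest annotated coding transcript, Vcam1 was the highest of the 9 in the WT brain, at 16.1 ± 1.65 CPM per kb (SD, n = 5), and in the WT liver, at 90.7 ± 8.17 CPM per kb. VCAM-1 is also made by stromal cells and macrophages of blood-forming organs. In the WT skin, Pecam1 led at 73.0 ± 9.69 CPM per kb, followed by Cdh5 at 65.9 ± 18.4 CPM per kb, and the ranges of Pecam1 and Cdh5 overlapped.

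Both selectins of the endothelium stood at the bottom in each WT organ. Selp measured 1.37 ± 0.391 CPM per kb in the WT liver and 1.25 ± 0.138 CPM per kb in the WT skin. Sele measured 0.191 ± 0.114 CPM per kb in the WT liver and 0.867 ± 0.750 CPM per kb in the WT skin, where its libraries ran from 0.253 to 2.12 CPM per kb and overlapped those of Selp. In the WT liver the neighbours Selplg (14.7 to 18.5), Icam2 (12.5 to 18.8) and Icam1 (11.6 to 18.5 CPM per kb) overlapped, as did Icam1, Tek and Vcam1 in the WT skin.

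In the brain, Sele and Selp each gave 0 or 1 count in every library of either genotype, under the floor of 3 counts that marks detection here (0.0717 to 0.0951 CPM). The WT brain libraries held 2 Sele counts in total, and the 5 WT liver libraries held 66. That is a ratio of CPM of 52.7 in favour of the liver, with an exact 95% counting interval of 14 to 444. The WT skin libraries held 463 Sele counts, a ratio of 243 over the brain (67.0 to 2015). For Selp, 1 count in the WT brain stood against 574 in the WT liver and 783 in the WT skin, ratios of 917 (164 to 36269) and 823 (147 to 32552). The intervals cover counting error only.

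With the mouse as a block, all 9 genes differed between WT liver and WT brain by edgeR's quasi-likelihood test at an adjusted p under 0.1, where 83.7% of all genes tested did. All 9 also differed between WT skin and WT brain (79.3% of all genes), and 7 of 9 between WT skin and WT liver (72.8%). These shares say little about the 9 genes, so the sizes matter more. Pecam1 was 3.51 higher on the log2 scale in skin than in brain and 1.82 higher in liver than in brain. Icam1 was 3.85 higher in liver and 4.04 higher in skin than in brain. Vcam1 ran the other way between skin and liver, with a log2 difference of -2.87 (SE 0.18), and between skin and brain its difference was small, -0.37 (edgeR adjusted p = 0.0582). Selplg was also lower in skin than in liver, by -2.15 on the log2 scale. Selp (-0.10, 95% interval -0.73 to 0.54) and Icam1 (0.19, -0.35 to 0.73) were the pair that did not pass between skin and liver, whereas Sele was 2.03 higher in skin (SE 0.49, edgeR adjusted p = 0.00317).

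**Figure D2:**
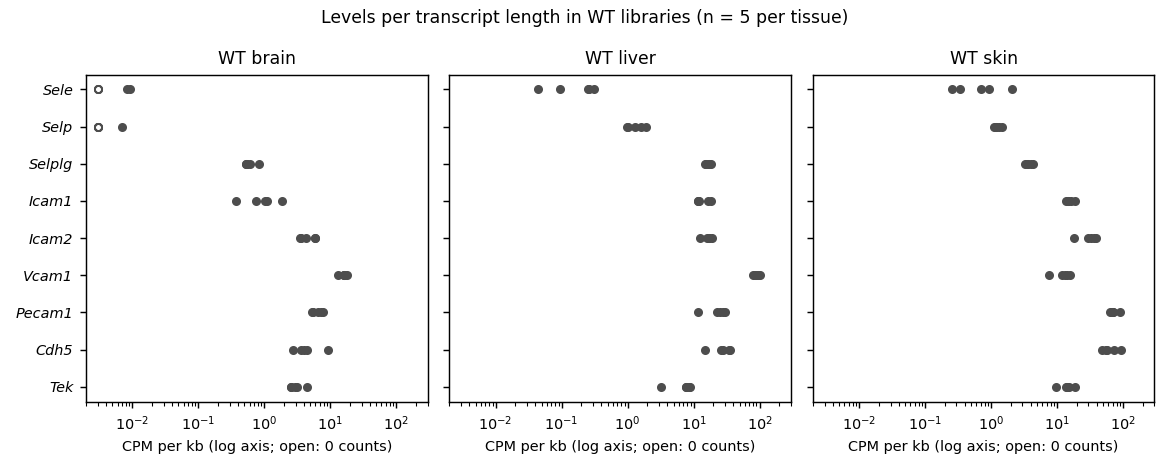
CPM per kb of transcript (log horizontal axis) for each gene in the 5 WT libraries of brain, liver and skin, 1 point per library and open points for 0 counts. Vcam1 leads in brain and liver and Pecam1 in skin, and Sele and Selp are the lowest in each organ.

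KI and WT animals were then compared within each organ, the question being whether adhesion genes differ in mice with the edited allele. A gene was called when edgeR's adjusted p, corrected over all genes tested in that organ, was under 0.1. In the liver 3 of the 9 genes were higher in KI mice, Sele, Selp and Selplg, against 3.89% of all 14966 genes called higher. In the skin 1 of the 9 was called, Selp, against 0.0247% of 16163 genes called higher. In the brain 7 of the 9 had enough counts to be tested and 0 were called, where 0% of 16322 genes were called. By DESeq2 0 of these 7 were called in the brain too, and 1 of the 7, Pecam1, had an unadjusted edgeR p under 0.05. In the higher direction, 457 of all 16322 brain genes had such a p. The members with such a p were 6 of 9 in the liver and 5 of 9 in the skin, all higher in KI mice. Over all genes 1421 of 14966 in the liver and 467 of 16163 in the skin did so in that direction. The WT 5 brain library stood apart, with a chi-square per degree of freedom of 176 to 208 over genes against each other WT brain, where the other WT pairs gave 26.1 to 42.1. Without it 1 of the 7 tested in the brain, Pecam1, was called higher, and the share of all genes called in that fit is not given here. No gene of the 9 was called lower in any organ. In bulk tissue, fewer cells of a type and less RNA per cell cannot be told apart.

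**Figure D3:**
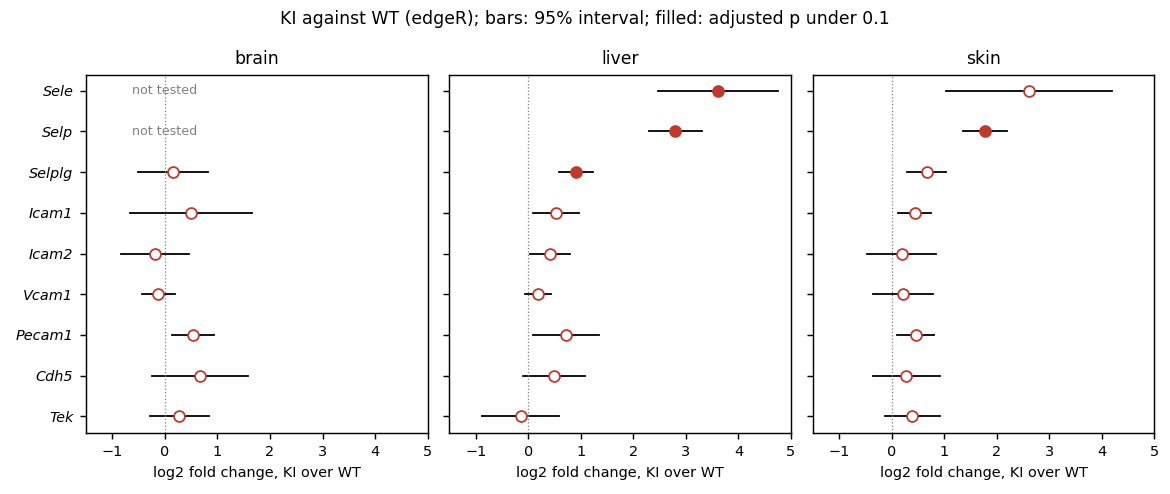
Log2 fold change of KI over WT for each gene (horizontal axis) in brain, liver and skin, with 95% intervals from edgeR and filled points where the adjusted p was under 0.1. Sele, Selp and Selplg are called in the liver and Selp in the skin, and the vessel genes have open points in all 3 organs.

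Sele, the endothelial selectin made on activation, was nearly silent in the WT liver. The WT libraries 1 to 5 measured 0.280, 0.732, 0.889, 0.759 and 0.127 CPM, from 3 to 20 counts each. The KI libraries measured 7.79 and 5.74 CPM, from 181 and 145 counts. Both KI values lay far above every WT value. The fitted log2 fold change was 3.61 (SE 0.51, edgeR adjusted p = 0.00952), about 12.2-fold, and all 17 alternative settings kept the call, with values from 3.18 to 3.86.

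In the skin, Sele measured 15.1 and 16.4 CPM in the KI libraries. The WT libraries measured 2.03, 6.16, 0.981, 2.71 and 0.738 CPM, so WT 2 held 8.35 times as much as WT 5. The KI libraries again lay above all 5 WT libraries. The log2 fold change of 2.61 (SE 0.69) did not pass the test (edgeR adjusted p = 0.747). DESeq2 called it, with an adjusted p of 0.0332, and was 1 of 17 alternative settings to do so. The part of the WT spread in the edgeR result was not tested.

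Selp, the selectin shared by endothelium and platelets, was also higher in the KI liver. The WT liver libraries measured 6.56, 5.53, 3.41, 3.53 and 4.52 CPM. Both KI liver libraries measured near 32 CPM (32.8 and 32.2). The lower KI library held 4.91 times as much as the highest WT library. The log2 fold change was 2.80 (SE 0.23, edgeR adjusted p = 0.000759), about 6.96-fold, and it was called in all 18 alternative settings, from 2.30 to 2.95.

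Selp in the skin measured 14 and 16.1 CPM in KI mice. The WT libraries lay in a narrow range, with 4.53, 5.03, 4.08, 3.85 and 4.06 CPM. The genotypes were well apart, and Selp rose by a log2 fold change of 1.78 (SE 0.18), 3.43-fold. The call was marginal (edgeR adjusted p = 0.0899) and was kept in 4 of 17 alternative settings, with adjusted p-values from 2.91e-14 by DESeq2 to 0.924. It was lost when any 1 mouse was left out, with the log2 fold change between 1.68 and 1.91.

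Selplg encodes PSGL-1, the leukocyte partner of P-selectin. It measured 65.0 and 96.5 CPM in the KI liver and 45.4, 48.2, 39.8, 38.3 and 45.2 CPM in the WT liver. KI 2 was much the higher of the KI pair, and both exceeded all WT libraries. The log2 fold change was 0.91 (SE 0.15, edgeR adjusted p = 0.0155), and without KI 2 it was 0.60 and no longer called (adjusted p = 0.211). In the skin Selplg measured 14.9 and 16.5 CPM in KI and 8.55 to 11.3 CPM in WT mice, a log2 fold change of 0.66 (edgeR adjusted p = 0.699) that DESeq2 called (adjusted p = 0.0520). In the brain it lay between 1.40 and 2.14 CPM in all 7 libraries, with KI and WT overlapping.

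Icam1, the receptor for the leukocyte integrins LFA-1 and Mac-1, changed far less than the selectins. In the liver the KI libraries measured 47.0 and 55.4 CPM and the WT libraries 29.4, 47.1, 41.9, 29.8 and 30.8 CPM. WT 2 lay at the level of KI 1. The log2 fold change was 0.53 (95% interval 0.10 to 0.97, edgeR adjusted p = 0.197). In the skin the KI libraries, at 56.2 and 53.2 CPM, lay above the WT range of 35.0 to 47.6 CPM, and the log2 fold change of 0.44 did not pass the test (edgeR adjusted p = 0.879). In the brain it ranged from 0.956 to 4.81 CPM in WT mice, which spans both KI values (3.40 and 4.46 CPM).

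Vcam1, the receptor for the integrin VLA-4, was abundant in the liver of both genotypes. The KI libraries measured 367 and 325 CPM and the WT libraries 273, 295, 322, 347 and 303 CPM. WT 4 lay above KI 2. The log2 fold change was 0.18, with a 95% interval of -0.06 to 0.43 (edgeR adjusted p = 0.425). In the skin (46.9 and 53.6 against 25.8 to 52.7 CPM) and the brain (50.8 and 55.4 against 45.5 to 60.8 CPM) the genotypes also overlapped, with log2 fold changes of 0.21 and -0.12. Icam2, a constitutive ligand of LFA-1, had log2 fold changes of 0.41 in the liver, 0.19 in the skin and -0.19 in the brain, none past the test. Its KI liver libraries, at 24.9 and 30.6 CPM, lay just above the WT range of 16.0 to 24.1 CPM.

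The vessel genes were taken as the reference for vessel content, and whether other cells of these organs also make them was not tested. Pecam1 measured 122 and 141 CPM in the KI liver and 77.9, 95.8, 88.0, 102 and 40.3 CPM in the WT liver. It was also higher in both KI libraries than in all WT libraries in the skin (311 and 387 against 221 to 308 CPM) and in the brain (35.4 and 33.0 against 18.4 to 27 CPM). Its KI values therefore did not overlap the WT values in any organ. With so few KI mice, such a separation can arise by chance for any gene, and its share over all genes is not given here. The log2 fold changes were 0.72, 0.45 and 0.54 in liver, skin and brain, and none passed the test (edgeR adjusted p = 0.219, 0.973 and 0.359). Without WT 5 the liver value was 0.56 and the brain value 0.50, and both were then called (edgeR adjusted p = 0.0497 and 0.0708). The shares of all genes called in those fits are not given here.

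Cdh5 and Tek did not separate the genotypes in the liver. Cdh5 measured 139 and 166 CPM in KI mice and 102, 141, 110, 138 and 60.3 CPM in WT mice. Tek measured 26.9 and 33.2 CPM in KI mice and 36.3, 40.6, 36.2, 40.1 and 14.9 CPM in WT mice. Except in WT 5, Tek was thus lower in the KI liver, whereas Cdh5 and Pecam1 leaned higher. WT 5 had the lowest level of all 3 vessel genes in the liver, and its 28 other endothelial genes summed to 563 CPM against 1005 to 1213 CPM in the other WT livers. In the skin the KI libraries differed from each other, with Cdh5 at 260 and 387 CPM and Tek at 76.1 and 101 CPM, and the log2 fold changes were 0.28 and 0.40. In the brain they were 0.67 and 0.28, with WT 2 (37.3 CPM of Cdh5 and 21.1 CPM of Tek) above both KI libraries.

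Activation was next set against vessel content library by library, as reads of a gene per 1000 reads of Pecam1, Cdh5 and Tek together. In the liver Selp gave 114 and 95 reads per 1000 vessel reads in KI mice and 30.3, 19.9, 14.6, 12.6 and 39.2 in WT mice. Sele gave 27 and 16.9 in the KI liver and 1.10 to 3.79 in the WT liver. For both selectins the KI libraries stayed above all WT libraries, also above WT 5 with its few vessel reads.

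The skin gave the same order. Selp gave 21.6 and 18.3 reads per 1000 vessel reads in the KI skin and 5.30 to 9.27 in the WT skin, and Sele gave 23.3 and 18.7 against 1.21 to 11.3. Icam1 behaved differently on this scale. It gave 163 reads per 1000 vessel reads in each KI liver, inside the WT range of 107 to 267, and 60.8 and 86.9 in the KI skin, inside the WT range of 45.5 to 92.2. Vcam1 also overlapped between genotypes in both organs, with 957 and 1274 against 1064 to 2625 in the liver. In the brain Vcam1 gave 604 and 641 in the KI libraries and 713 to 1234 in the WT libraries.

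**Figure D4:**
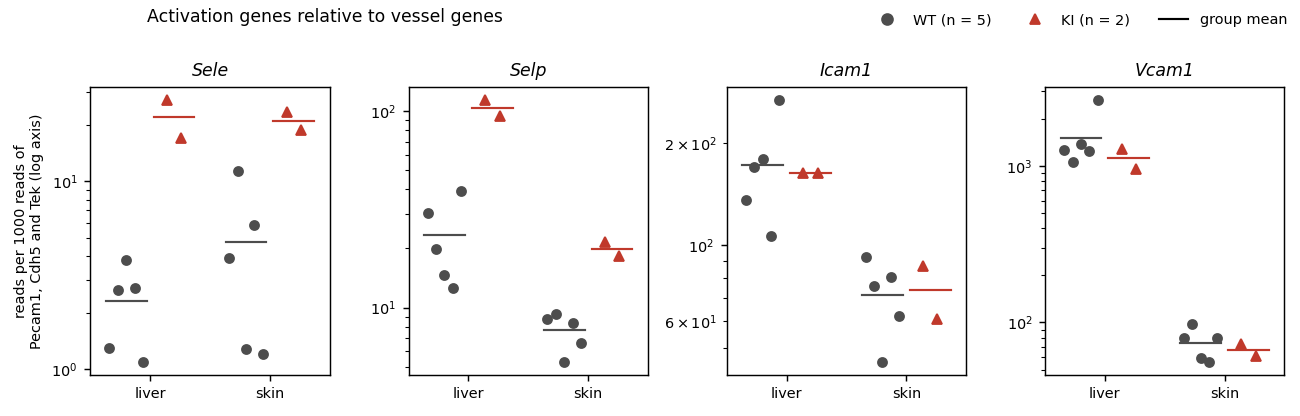
Reads of Sele, Selp, Icam1 and Vcam1 per 1000 reads of Pecam1, Cdh5 and Tek (log vertical axis) in the liver and skin, with 5 WT (circles) and 2 KI libraries (triangles) and bars at the group means. The KI libraries lie above all WT libraries for Sele and Selp and among or below them for Icam1 and Vcam1.

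As a summary value without a test, the mean log2 CPM of the 4 activation genes was taken minus that of the 3 vessel genes. In the liver it was -0.75 and -1.10 in KI mice and lay between -2.64 and -1.81 in WT mice, a difference of 1.40, which was 0.910 with medians in place of means. In the skin it was -2.74 and -3.07 in KI mice and between -4.56 and -3.26 in WT mice, a difference of 0.98. In the brain it was -4.67 and -4.84 against -4.63 to -4.01, a difference of -0.41. Its activation part varies there through Icam1 and Vcam1 only, because the selectins are at the floor. That part alone was 0.08 and -0.03 in the KI brain, inside the WT range of -0.45 to 0.16. The vessel part was 4.75 and 4.81 in the KI brain and 3.75 to 4.79 in the WT brain. Within the 4 genes, the selectins carry the liver and skin differences.

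Fits that took vessel content into account gave the corresponding tests. With the vessel level as a covariate in the liver, the log2 fold change was 3.18 for Sele (edgeR adjusted p = 0.0176) and 2.81 for Selp (adjusted p = 0.0036), and 2.71% of all genes were called higher. With the libraries scaled to equal vessel level, Sele was 3.35 and Selp 2.31 higher, both called, where 0.247% of genes were called higher. With scaling on the 28 other endothelial genes they were 3.62 and 2.65 higher, both called, where 0.588% were. These 2 scalings moved the median of all genes by -0.52 and -0.17 on the log2 scale, and the selectins rose against that shift. Icam1 was 0.43, 0.06 and 0.41 higher in these 3 fits and Vcam1 0.17, -0.31 and 0.04, none called. Selplg was 0.75 higher with scaling on the other endothelial genes and was no longer called (edgeR adjusted p = 0.843).

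In the skin 0 of the tested members were called in the same 3 fits by edgeR, where 0%, 0.00619% and 0% of all genes were called higher. The Selp values were 1.74, 1.37 and 1.43 and the Sele values 3.46, 2.15 and 2.26 on the log2 scale. Both had an unadjusted p under 0.05 in each of the 3 fits, as did Icam1 in the covariate fit, and DESeq2 was not run with these terms. The 2 scalings moved the median of all skin genes by -0.43 and -0.37. Vcam1 was -0.09, -0.16 and -0.12, the sign opposite to its value without vessel content.

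**Figure D5:**
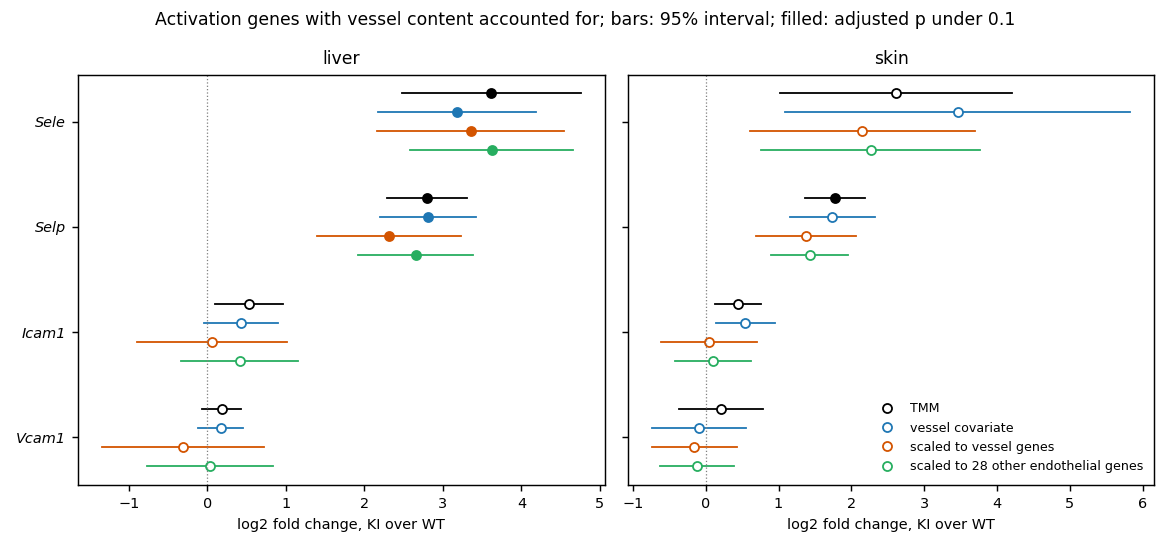
Log2 fold change of KI over WT (horizontal axis) with 95% intervals for Sele, Selp, Icam1 and Vcam1 in liver and skin, from the TMM fit and from 3 edgeR fits that take vessel content into account. Filled points have an adjusted p under 0.1. Sele and Selp stay well above 0 in all 4 liver fits, and the intervals of Vcam1 include 0 throughout.

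Other cells that make these genes also moved in the KI liver. All 10 pan-leukocyte genes (Ptprc, which encodes CD45, and others) were called higher, where 3.89% of all liver genes were. The median log2 fold change of the 10 was 0.61, and their summed level was 1894 and 2165 CPM in KI against 1218 to 1468 CPM in WT mice. Selplg, which leukocytes make, moved with them. In a fit scaled to these genes, chosen after seeing the data, Selplg was 0.32 higher (SE 0.14, edgeR adjusted p = 0.0586). That scaling moved the median of all genes by -0.60, and 1.35% of genes were called higher and 68.3% lower. In the skin all 10 leukocyte genes had positive fold changes, with a median of 0.40 against -0.03 over all skin genes, and 0 were called. In the brain 5 of 10 were positive.

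Megakaryocyte and platelet genes, the other known source of P-selectin, summed to 991 and 1191 CPM in the KI liver and 598 to 956 CPM in the WT liver. Of the 12 genes listed 2 were called higher, Itga2b (CD41) by 0.83 and Clec1b by 0.50 on the log2 scale, against 3.89% of all liver genes. In WT 1 to 5 the sums were 956, 798, 812, 598 and 762 CPM. Selp measured 6.56, 5.53, 3.41, 3.53 and 4.52 CPM in the same libraries. KI 1 and KI 2 held 991 and 1191 CPM of these genes, and 32.8 and 32.2 CPM of Selp. The sums include Vwf. The part of these cells in the Selp difference was not tested beyond the fit that follows. Scaled to these genes without Vwf, an alternative added after seeing the data, Selp was 2.30 higher in the KI liver (SE 0.39, edgeR adjusted p = 0.000125), with 0.247% of genes called higher and a shift of -0.60 in the median of all genes.

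In the skin, 18 immediate early genes such as Fos and Egr1, which respond to handling and stress as well as to signalling, also leaned higher in KI mice. All 18 had positive log2 fold changes with a median of 0.93, against -0.03 over all skin genes, and 0 were called by edgeR. Their sums were 4582 and 2638 CPM in KI mice and 2562, 2765, 965, 1248 and 820 CPM in WT mice. In the same order, Sele measured 15.1 and 16.4 CPM in KI mice and 2.03, 6.16, 0.981, 2.71 and 0.738 CPM in WT mice. KI 1 was highest for the early genes, and within the WT skin WT 2 was highest for both the early genes and Sele. KI 2, which had the highest Sele, lay below WT 2 for the early genes, so the genotypes overlapped in these sums. The part of the early response in the selectin differences was not tested.

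Genes that work with the selectins were read from lists. Among genes for selectin ligands and their synthesis, those called higher in the liver included Cd44, a glycoprotein that binds E-selectin, and St3gal4, a sialyltransferase that caps selectin ligands. Their log2 fold changes were 0.52 and 0.49. The median was 0.11 over the 18 tested genes of that list, 13 of them positive, and -0.02 over all genes. Of 12 tested integrins and partners, 3 were called higher in the liver, where 3.89% of all genes were. They were the leukocyte integrin chains Itgam (0.62), Itgal (0.55) and Itgb2 (0.54), and the list median was 0.18. Itga4 leaned the other way in the liver (-0.37, edgeR adjusted p = 0.1001). Its KI libraries, at 158 and 164 CPM, lay below the WT range of 192 to 229 CPM. In skin and brain none of the 12 integrin genes was called by edgeR.

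Of the 28 other endothelial genes, 2 were called higher in the KI liver, Ecscr (0.99) and the sphingosine-1-phosphate receptor S1pr1 (0.88), with a list median of 0.23. Over all liver genes 3.89% were called higher, so 2 of 28 is no result about this list. In the skin 27 of the 28 had positive fold changes, with a median of 0.27, against -0.03 over all skin genes, and 0 called. Among 10 genes of the liver sinusoid, only the Fc receptor Fcgr2b was called (1.58, adjusted p = 0.0034 by edgeR), and 8 of the 10 had negative fold changes, with a median of -0.30. The junction and immunoglobulin-family list gave 1 called gene of 19 in the liver, F11r (0.31), which encodes JAM-A, a share near that over all liver genes.

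Of 22 further genes linked to endothelial activation, 21 were tested in the liver and 5 were called higher, against 3.89% of all liver genes. The 4 with the largest change were Ch25h (3.6), the neutrophil chemokine Cxcl1 (2.47), the JAK-STAT feedback inhibitor Socs3 (2.09) and Lrg1 (1.62). The list median was 0.67. In the skin 19 of 21 had positive values, with a median of 0.54 against -0.03 over all skin genes. Lrg1 alone was called there (2.48, edgeR adjusted p = 0.0899), where 0.0247% of all skin genes were called higher. None of these genes is restricted to endothelium. Of the Tie and VEGF receptor and ligand genes, 10 per organ were tested and 0 were called in any organ by edgeR, with medians of -0.02 in the liver, 0.29 in the skin and 0.38 in the brain.

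Differences of the KI effect between organs were tested with the mouse as a block. By edgeR 0 of 7 members were called for liver against brain, where 2.6% of all genes were, 0 of 7 for skin against brain (0%) and 0 of 9 for skin against liver (0.0941%). DESeq2 also called 0 in each. An unadjusted p under 0.05 was found for Selplg in the first contrast (0.64) and Selp in the last, where its effect was -1.02 in the skin relative to the liver (SE 0.44, edgeR adjusted p = 0.876). The Sele effect differed by -0.79 between skin and liver, with a 95% interval of -2.36 to 0.78. Differences of the selectin response between liver and skin were thus not resolved with these animals.

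Over the 21 libraries, with each organ's mean removed, some genes followed the members closely. The points share libraries, depth and the genotype difference, and the correlations are a description. Among 13653 genes, Selp was most like Tnfrsf9 (Pearson r = 0.934), Lilrb4a (0.930) and Fam43a (0.90), and Sele most like S1pr1 (0.911), Ccl6 (0.880) and Ctss (0.877). Icam1 was most like Tor4a (0.887), Tnfrsf1a (0.878) and Lrrc25 (0.855). Vcam1 was most like Gata6 (0.844), Zfp738 (0.826) and Cd38 (0.823), and Pecam1 most like Mest (0.929), Adgrf5 (0.928) and Flt1 (0.913).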

How the data were processed

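Paired-end reads had been trimmed by the authors and aligned to mm9 with TopHat2, and the submitters' processing notes also name HTSeq. The deposited values are raw read counts per gene symbol, 1 file per library, with summary lines for unassigned reads. These lines held 30.4% to 38.1% of the tallied reads, 17.1% to 25.4% being reads placed at several positions, and were left out.

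Within each organ, 2 KI and 5 WT libraries entered 1 edgeR fit (version 4.0.16, R 4.3.3) with filterByExpr, TMM factors and a quasi-likelihood test. Calls needed a Benjamini-Hochberg value under 0.1 over all tested genes. Standard errors were the log2 fold change divided by the square root of the F value. WT organs, and KI effects between organs, were tested with the mouse as a block. Log2 CPM used a prior count of 2. Alternatives included DESeq2 1.42.0, vessel content as covariate or scale, and leaving out each mouse. The genes named were the 9 members, the called list genes with the largest change (up to 4 per list and organ) and the 3 genes most like each of 5 members. The members and lists were chosen with earlier results of these data known. The steps were tested on simulated counts. Items withheld for evaluation are not reported here. Same-numbered libraries of 1 genotype were taken as 1 mouse, and p-values rest on 2 KI mice. Transcript lengths were those of the longest GENCODE vM1 coding transcript.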

Additional observations from a re-analysis of the deposited data

Results flagged for a closer look

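Of 25 groups of 5 WT libraries (1 per gene and organ, Sele and Selp in the brain left out), 3 held a library far from the rest, a gap above 0.71 of the group's range. Chance flags about 1 in 20 such groups. Tek in the liver was 14.9 CPM in WT 5 and 36.2 to 40.6 CPM in the other WT mice. Cdh5 in the brain was 37.3 CPM in WT 2 and 11.1 to 18 CPM in the others. Selplg in the brain was 2.14 CPM in WT 2 and 1.40 to 1.58 CPM in the others.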

How the results depend on the processing

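Sele and Selp stayed called in the liver under every alternative run, and 3 members were called there by edgeR and by DESeq2. In the skin the number of members called was 1 by edgeR and 3 by DESeq2. The shares of all liver and skin genes that DESeq2 called are not given here. The skin number was 0 with an adjusted p under 0.05, with Y-linked expression as a covariate and with scaling on other endothelial genes. It was also 0 when any 1 mouse was left out (0 in each). The cause was not tested. In the brain the number called ranged from 0 to 1 with a mouse left out, 1 without WT 5. The share of all genes called in that fit is not given here. The counts of members called between WT organs and for differences of the KI effect were equal with and without WT 5. The activation level minus the vessel level in the liver was 0.910 with medians in place of means.

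Replicate numbers do not pair the mice: same-numbered KI and WT libraries correlated at -0.0977 to 0.199 once group means were taken out. That number was also used as a replicate block. Only libraries whose number occurs in both genotypes then inform the genotype effect, because each other WT library forms a block alone. The calls of this fit rest on these few libraries and on a pairing that does not hold, so no conclusion is drawn from them. In the brain 783 genes were called higher and 1382 lower, against 0 without the block. In the liver 471 and 346 were, and in the skin 0 and 0, where 0 members were then called (Selp 1.62). Pecam1 in the liver was called with the replicate block (0.62, edgeR adjusted p = 0.0246).

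Signs turned for small effects. With the vessel covariate, Icam1 was -0.038 (brain) and Vcam1 -0.089 (skin). With scaling to vessel genes, Vcam1 was -0.31 (liver) and -0.16 (skin). With scaling to other endothelial genes, Selplg (-0.17) and Tek (-0.046) turned in the brain and Icam2 (-0.17), Vcam1 (-0.12) and Cdh5 (-0.073) in the skin. With a mouse left out, log2 fold changes ran from -0.050 to 0.36 for Selplg in the brain, -0.32 to 0.011 for Tek in the liver, -0.10 to 0.46 for Icam2 and -0.030 to 0.58 for Cdh5 in the skin, and -0.18 to 0.016 for Selp between WT skin and liver. Differences of the KI effect ran, for liver against brain, from -0.33 to 0.064 (Icam1) and -0.040 to 0.26 (Pecam1). For skin against brain they ran from -0.38 to 0.033 (Pecam1), -0.13 to 0.15 (Tek), -0.496 to 0.016 (Icam1) and -0.035 to 0.65 (Icam2), and for skin against liver from -0.25 to 0.062 (Icam1), -0.12 to 0.27 (Vcam1), -0.40 to 0.023 (Selplg) and -0.46 to 0.040 (Cdh5). None of these was called. Among the single-gene values under the alternatives, 863 kept direction and side of the threshold, 19 lost a call, 5 gained one and 29 turned sign. Among the counts of members called and the level differences, 121 stayed close and 14 moved. Depth limits Sele and Selp in the brain, where a change under 3 counts per library was not detectable.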
